A study of Homo sapiens with 3 samples.

Results

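In U2OS cells, 9865 regions called for C11orf84 each lay over at least 2 separate regions called for Spindlin1. They were chosen from the 176515 C11orf84 intervals on chromosomes 1 to 22, of which they make up 5.59% (95% Clopper-Pearson interval 5.48 to 5.70), and are called spanning intervals here. Members were selected by position: a spanning interval shares 1 bp or more with each of 2 or more intervals of the Spindlin1 peak list. Since overlap chose them, their width, their number of Spindlin1 intervals and the gaps inside them are descriptions. In the reverse case, 6402 of 152617 Spindlin1 intervals (4.19%, 4.09 to 4.30) each lay over 2 or more C11orf84 intervals.

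The data are chromatin immunoprecipitation with sequencing (ChIP-seq) of untreated U2OS cells, a human osteosarcoma line with an altered karyotype. Spindlin1 and C11orf84 were each precipitated in 1 library, and the Input library had no file that was used here. No group has a replicate, so no p-value is given. Intervals on shares are 95% Clopper-Pearson intervals throughout. They cover counting error only and take neighbouring regions as independent, which they are not.

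Spindlin1 is a chromatin reader whose tudor-like Spin/Ssty repeats bind the methylated tail of histone H3. It is best known for recognising H3K4me3, the mark of active promoters, and has been linked to ribosomal RNA transcription and Wnt signalling. C11orf84, also named SPINDOC, binds Spindlin1 and was described as a cofactor that restrains its activity on chromatin. A peak list reduces the reads of such an experiment to intervals, so that 1 continuous domain in one list can appear as several pieces in the other. Genes at the positions below are not named and no sequence is printed, because no hg19 annotation or genome was used here.

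Most spanning intervals lay over a pair of Spindlin1 intervals. Exactly 2 were found in 8661 of them, 3 in 993, 4 in 156, 5 in 44, 6 in 8, 7 in 2 and 8 in 1. The reverse case ended sooner, with 6102 Spindlin1 intervals over 2 C11orf84 intervals, 278 over 3, 21 over 4 and 1 over 5. The C11orf84 members were thus 1.54 times as numerous as the reverse cases, although the list counted inside them was the shorter one. Among the C11orf84 intervals that were not members, 92002 lay over 1 Spindlin1 interval and 74648 over none.

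**Figure D1:**
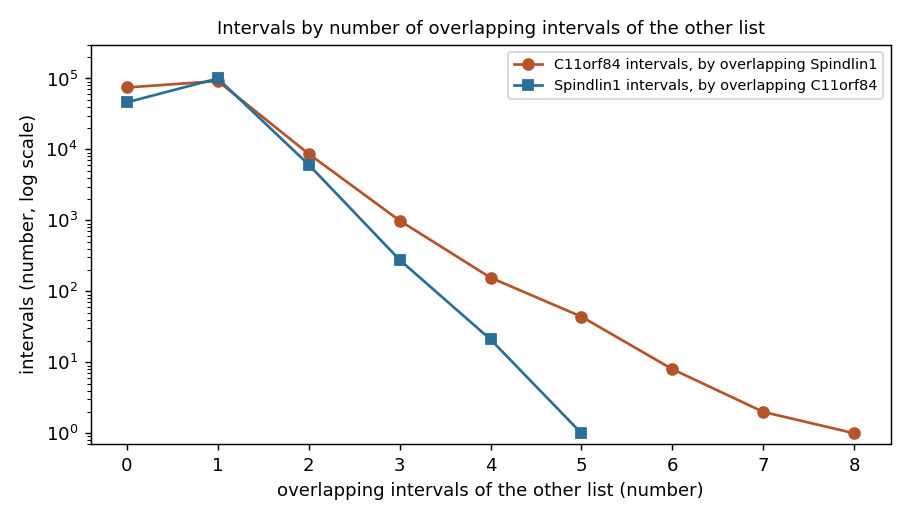
Number of intervals (vertical axis, log scale) by the number of overlapping intervals of the other list (horizontal axis), for C11orf84 intervals (circles) and Spindlin1 intervals (squares) on chromosomes 1 to 22. The C11orf84 series reaches 8 and the Spindlin1 series ends at 5.

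The lists differ in ways that move with this asymmetry. C11orf84 intervals were wider, with a median of 248 bp against 229 bp, and covered 59.7 Mb against 46.5 Mb. Summit depth and background, in fragments, were recovered from the authors' fold and p-value of each peak. The lowest background of a list, called the floor, was 1.04 fragments for C11orf84 and 0.949 for Spindlin1, which after scaling by the shortest interval (180 and 172 bp) would put the C11orf84 library at 1.04 times the depth of the Spindlin1 library. The part of depth and width in the asymmetry was not tested. Per Mb of their own list, there were 165 spanning C11orf84 intervals and 138 reverse cases.

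The members with most Spindlin1 intervals show what the overlap looks like along the DNA. All positions are hg19, counted from 1. The single member over 8 lay on chromosome 19 (30015539 to 30020944, 5406 bp), had a C11orf84 fold enrichment of 5.61 over local background at 30 fragments, and was covered by Spindlin1 intervals over 69.8% of its length. Its 8 Spindlin1 intervals were 179 to 932 bp wide. They had folds of 9.15, 5.91, 5.49, 7.75, 4.57, 7.13, 7.41 and 4.91 in order of position. The deepest of them, the sixth, had 37 fragments on a background of 4.57 times the floor and held the C11orf84 summit. The gaps between them were 110, 247, 612, 74, 135, 66 and 175 bp long. Only the third of these gaps exceeded the width of the Spindlin1 interval before it, which was 389 bp. The C11orf84 background there was 4.36 times the floor.

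The members over 7 Spindlin1 intervals lay on chromosomes 9 and 2. The one on chromosome 9 (139742393 to 139754713) was also the widest of all C11orf84 intervals at 12321 bp. Spindlin1 intervals covered 93.3% of it, and its longest gap was 270 bp. Its Spindlin1 folds ran from 5.40 in the leftmost interval to 12.8 in the sixth, while the Spindlin1 background went from 3.63 times the floor to the floor itself (1.00) over the same stretch. The C11orf84 summit lay near the left end, in the second Spindlin1 interval, on a background of 4.91 times the floor. The member on chromosome 2 (128387938 to 128395146, 7209 bp) stood at the floor, with a C11orf84 fold of 11.8 at 23 fragments. Spindlin1 covered 90.9% of it, with folds of 6.24 to 10.8 and gaps of at most 172 bp.

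Members over 6 Spindlin1 intervals included 2 near the chromosome 12 centromere, described further on, and 1 each on chromosomes 8 (144594564 to 144604406), 17 (79054678 to 79058364), 20 (60998912 to 61002995) and 22 (20223878 to 20230895). The chromosome 8 member was 9843 bp wide and 95.4% covered, and none of its gaps was longer than 137 bp. Its fold was 6.83 on a background of 3.27 times the floor. The chromosome 20 member, at the floor with a fold of 11.3, was 78.8% covered with gaps of up to 363 bp, and its C11orf84 summit fell in a gap. The remaining member of the 10 with most Spindlin1 intervals was on chromosome 9 (139269373 to 139278372), 9000 bp wide and 94.8% covered. In the wide members of chromosomes 8 and 9, Spindlin1 was thus nearly as continuous as C11orf84 and broken at a few short places.

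**Figure D2:**
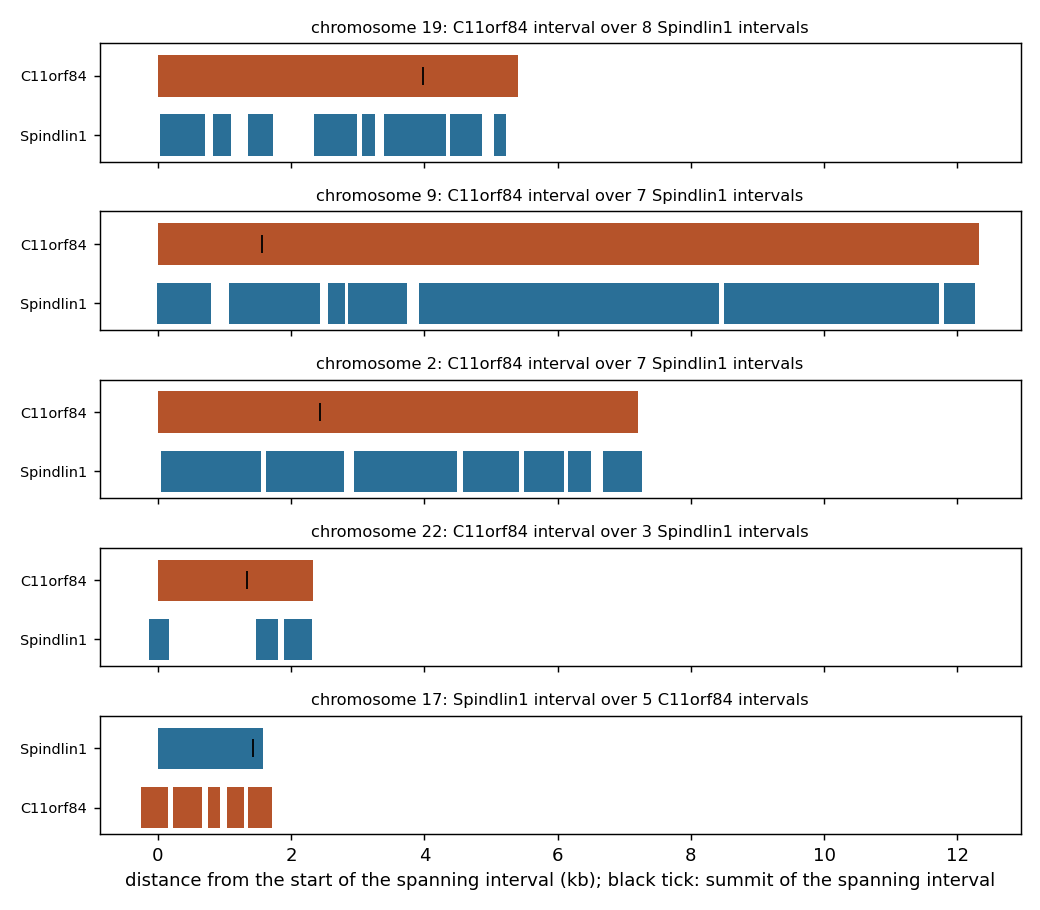
Maps of 5 regions, with distance in kb from the start of the spanning interval on the horizontal axis. The upper bar of each panel is the spanning interval with its summit as a black tick, and the lower bars are the intervals of the other list. The chromosome 9 member is covered over 93.3% of its length, and the chromosome 22 member has the longest gap, 1305 bp.

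Gaps between Spindlin1 intervals inside a member were short. The 11350 gaps had a median of 109 bp (interquartile range 73 to 179 bp), less than the shortest Spindlin1 interval of the list (172 bp). Gaps under 100 bp made up 44.6% of them, 20.4% were 200 bp or longer, and 176 gaps (1.55%) reached 500 bp. No 2 intervals of either list lay closer than 51 bp, so gaps of 50 bp or less do not occur. Over the whole list, neighbouring Spindlin1 intervals had a median gap of 1511 bp, and 14.6% of gaps were under 200 bp. Summits of neighbouring Spindlin1 intervals inside a member lay a median of 474 bp apart (350 to 673 bp). Reverse cases had shorter gaps, with a median of 94 bp (67 to 144 bp), and 10.8% of them were 200 bp or longer.

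The rule turns on these gaps. Counted intervals close to each other were joined to 1 before counting, those of Spindlin1 for members and those of C11orf84 for reverse cases. With those less than 200 bp apart joined, 2228 C11orf84 intervals still lay over 2 or more, against 725 reverse cases. With those less than 500 bp apart joined, the numbers were 176 and 23. The C11orf84 to Spindlin1 ratio of the numbers was 3.07 and 7.65 in these counts. Longer breaks were therefore rarer in both directions and less evenly divided between them.

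Seen from the gaps, C11orf84 bridged breaks in the Spindlin1 list more often than the reverse at each length up to 1 kb. Of the 5180 Spindlin1 gaps of 51 to 74 bp, 57.6% (56.2 to 58.9) lay inside 1 C11orf84 interval. Spindlin1 bridged 34.4% (33.2 to 35.5) of the 6546 C11orf84 gaps of that length. For gaps from 100 bp up to 150 bp the shares were 36.7% (35.6 to 37.9) and 17.5% (16.7 to 18.3). From 200 bp up to 500 bp they were 9.46% (9.08 to 9.85) and 2.47% (2.30 to 2.66), so that the C11orf84 share was 1.67 times the Spindlin1 share in the shortest class and 3.82 times in this one. Beyond 500 bp and below 1 kb, 173 of 19987 Spindlin1 gaps and 23 of 23889 C11orf84 gaps were bridged. Above 1 kb only 3 Spindlin1 gaps were, and 0 of the 13356 C11orf84 gaps from 1000 bp up to 1500 bp, which allows a share of up to 0.0225% (3 counts of the total, counting error only; the upper end of the two-sided Clopper-Pearson interval is 0.0276%).

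**Figure D3:**
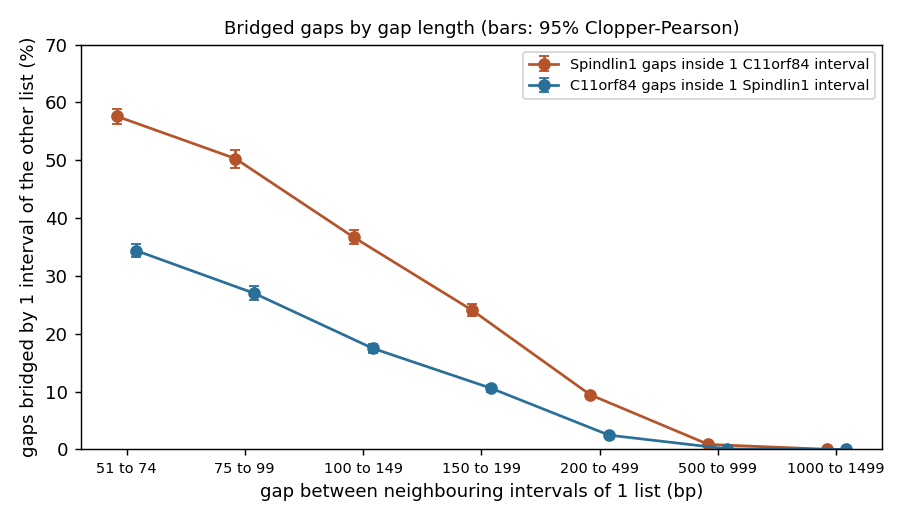
Share of gaps between neighbouring intervals of 1 list that lie inside a single interval of the other list (vertical axis, percent), by gap length in bp (horizontal axis), with 95% Clopper-Pearson intervals as bars. Spindlin1 gaps bridged by C11orf84 fall from 57.6% to 0.0267%, and C11orf84 gaps bridged by Spindlin1 from 34.4% to 0.

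The longest bridged Spindlin1 gaps were found on chromosomes 22 and 16. The chromosome 22 member (41643688 to 41646016, 2329 bp, fold 10.3 at 20 fragments on the floor) held a gap of 1305 bp between Spindlin1 intervals of 11 fragments each, and the C11orf84 summit lay inside that gap. On chromosome 16 (88805364 to 88807668, fold 9.82) the gap was 1279 bp and again held the C11orf84 summit. The third, also on chromosome 16 (88442446 to 88444304, fold 7.85), had a gap of 1053 bp with the C11orf84 summit in a Spindlin1 interval. At these 3 regions Spindlin1 covered 39.1%, 41.9% and 40.4% of the C11orf84 interval. Within such a gap no Spindlin1 peak was called, and how much Spindlin1 signal lay below the call was not measured.

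Spanning intervals were wide. Their median width was 755 bp (interquartile range 553 to 1065 bp, 180 to 12321 bp in all), against 289 bp for C11orf84 intervals over 1 Spindlin1 interval and 208 bp for those over none. Width rose with the number spanned, from a median of 706 bp over 2 Spindlin1 intervals to 1312 bp over 3, 2131 bp over 4 and 3283 bp over 5 or more. The member's width per Spindlin1 interval rose as well, from a median of 353 bp over 2 to 651 bp over 5 or more. Outer Spindlin1 intervals that reach past a member's end count in full here. The rise therefore does not show whether the pieces were wider or farther apart, which was not tested. Members made up 8.95 of the 59.7 Mb under C11orf84 intervals. Reverse cases had a median width of 597 bp and made up 4.54 of the 46.5 Mb under Spindlin1 intervals.

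Among intervals of like width, the 2 directions crossed over. Below 250 bp, 0.140% (0.117 to 0.167) of C11orf84 and 0.301% (0.266 to 0.340) of Spindlin1 intervals spanned several of the other list. From 250 bp up to 500 bp these shares were 2.67% and 3.88%. From 500 bp up to 1 kb they were 24.9% (24.4 to 25.5) and 22.8% (22.1 to 23.5), and from 1 to 2 kb 64.0% (62.4 to 65.5) and 43.8% (41.6 to 46.0). At 2 kb or more, 446 of 553 C11orf84 intervals (80.7%, 77.1 to 83.9) and 133 of 270 Spindlin1 intervals (49.3%, 43.1 to 55.4) did. Narrow Spindlin1 intervals thus met several C11orf84 intervals more often than the reverse, and wide ones less often.

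**Figure D4:**
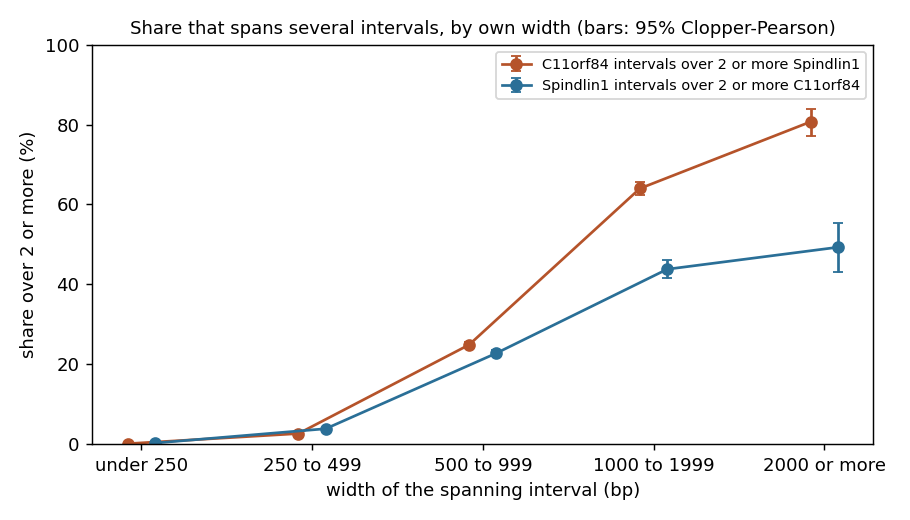
Share of intervals that lie over 2 or more intervals of the other list (vertical axis, percent) by their own width in bp (horizontal axis), with 95% Clopper-Pearson intervals as bars. The curves are close up to 1 kb and separate above it, reaching 80.7% for C11orf84 and 49.3% for Spindlin1.

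Spanning intervals often broke off inside their outer Spindlin1 intervals. In 1892 members (19.2%) every Spindlin1 interval lay wholly inside, in 4785 (48.5%) Spindlin1 reached past 1 end of the C11orf84 interval, and in 3188 (32.3%) past both. In the reverse case C11orf84 reached past both ends in 61.8% and lay wholly inside in 4.51%. A member was covered by Spindlin1 over a median of 74.1% of its length (61.9 to 83.3%), and a reverse case by C11orf84 over 78.7%. The smallest overlap of a member with one of its Spindlin1 intervals had a median of 173 bp, was under 50 bp in 1041 members (10.6%), and was 1 to 10 bp in 231. Asking for the Spindlin1 summit inside the C11orf84 interval left 6917 members and 3039 reverse cases, a ratio of 2.28.

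At the edge of the rule, 23 members over 2 Spindlin1 intervals met one of them by 1 bp, such as those on chromosome 1 at 149034154 to 149034768 (615 bp) and 178455333 to 178455801 (469 bp). Just outside, 21 C11orf84 intervals over 1 Spindlin1 interval directly adjoined another without sharing a base, such as 10745908 to 10746230 on chromosome 1 (323 bp). In all, 1720 of the intervals over 1 Spindlin1 interval (1.87%) had another within 50 bp of their end. The narrowest members were 180 bp wide, the shortest width in the C11orf84 list. One on chromosome 1 (31361358 to 31361537, fold 4.22 at 8 fragments) lay across a gap of 62 bp between 2 Spindlin1 intervals of 11 fragments, and its summit was in the gap.

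C11orf84 summits of spanning intervals mostly fell within Spindlin1 intervals. This was so for 8159 members (82.7%, 81.9 to 83.4), where Spindlin1 intervals covered 73.4% of the members' summed length. In 1385 members (13.4 to 14.7%) the summit lay in a gap, with gaps making up 18.5% of the summed length, and in 321 (3.25%) outside the outermost Spindlin1 interval. Members with their summit in a gap had longer gaps, with a median for the longest of 188 bp against 108 bp, and a median summit depth of 13 against 15 fragments. In the reverse case 82.8% (81.9 to 83.7) of Spindlin1 summits fell within a C11orf84 interval and 16.1% in a gap, for 79.0% and 17.4% of the length. The intervals of the shares inside overlap between the 2 directions.

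Where a member lay over 2 Spindlin1 intervals of unequal depth and its summit fell in one of them, that one was the deeper in 3845 of 6322 members (60.8%, 59.6 to 62.0). Width moved with it, since the deeper interval was also the wider one in 68.8% of those with unequal widths, and the summit fell in the wider one in 59.6%. Spindlin1 summits of reverse cases fell in the deeper C11orf84 interval in 2734 of 4559 cases (58.5 to 61.4%). In a member over 2, the deeper Spindlin1 interval had a median of 14 fragments and the shallower 11, in a library whose median was 11. The deeper of a pair is high by choice. Taken singly, Spindlin1 intervals in members had a median of 12 fragments, as had those under C11orf84 intervals over 1.

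Members were deeper and had higher folds than other C11orf84 intervals. The median summit depth was 15 fragments (interquartile range 13 to 18), against 13 for intervals over 1 Spindlin1 interval and 11 for those over none. The authors' fold had a median of 6.87 (5.89 to 8.35) against 5.95 and 5.40. Both rose with the number spanned, to 20 fragments and a fold of 8.55 in the 55 members over 5 or more. Depth and width moved together. Among C11orf84 intervals at the floor, the spanning share went from 1.16% (1.02 to 1.30) below 10 fragments, at a median width of 206 bp, to 26.9% (24.3 to 29.6) at 20 to 24 fragments, at 564 bp. For Spindlin1 intervals at its floor the corresponding shares were 2.05% (459 of 22344) and 13.7% (77 of 561).

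The highest folds among members belonged to intervals over 2 Spindlin1 intervals each. They were 17.7 at 35 fragments on chromosome 8 (145094067 to 145095772), 15.7 at 31 fragments on chromosome 9 (139365970 to 139366622), 15.3 on chromosome 8 (145843187 to 145843759), 15.2 on chromosome 7 (1350347 to 1352224) and 15.2 on chromosome 8 (142706709 to 142707517). Spindlin1 folds under these 5 ran from 3.81 to 12.3. On chromosome 9 the gap was 82 bp between Spindlin1 intervals of 20 and 23 fragments. On chromosome 7 both Spindlin1 intervals had 15 fragments and a fold of 8.21, on either side of a gap of 115 bp. The C11orf84 background of these 5 members was 1.00 times the floor, except for 1.11 times at 145843187. The Spindlin1 background under them was 1.00 to 1.71 times its floor, highest under that same member.

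Background was raised, at 2 times the floor or more, in 1306 members (13.2%, 12.6 to 13.9), against 9.22% of all C11orf84 intervals. It was raised in 808 reverse cases (12.6%, 11.8 to 13.5), against 9.09% of all Spindlin1 intervals. Of the C11orf84 intervals on a raised background, 8.03% spanned several Spindlin1 intervals, and 5.34% of the others did. Without raised intervals in either list, 7906 members and 5101 reverse cases were found, a ratio of 1.55.

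With all arm ends pooled, spanning intervals were concentrated near chromosome ends, though not at each end. The outermost 5 Mb of 39 arm ends (short arms of chromosomes 13, 14, 15, 21 and 22 not counted) held 4108 members (41.6%, 40.7 to 42.6), against 27.8% of all C11orf84 intervals. They held 2662 reverse cases (41.6%, 40.4 to 42.8), against 28.0% of all Spindlin1 intervals. The spanning share of C11orf84 intervals was 9.98% (9.60 to 10.4) within 2 Mb of an end, 6.77% from 2 to 5 Mb, 5.01% from 5 to 10 Mb and 3.78% (3.54 to 4.02) from 10 to 20 Mb. It was 4.62% (4.48 to 4.76) farther in, so the fall did not continue past 20 Mb. By number spanned, the ends held 39.8% (38.7 to 40.8) of the members over 2 Spindlin1 intervals, 51.8% (48.6 to 54.9) of those over 3 and 73.7% (66.1 to 80.4) of those over 4. Of the 55 members over 5 or more they held 35 (63.6%, 49.6 to 76.2), so the share was not higher again in that class.

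Within a width class, the ends had the higher spanning share among narrow intervals and not among the widest. From 500 bp up to 1 kb, 25.5% (24.6 to 26.5) of C11orf84 intervals at the ends and 24.6% (23.9 to 25.3) elsewhere spanned several Spindlin1 intervals. From 1 to 2 kb these were 62.3% (60.1 to 64.5) and 65.7% (63.4 to 67.8), and at 2 kb or more 78.6% (74.4 to 82.3) and 89.1% (81.7 to 94.2). Below 500 bp the ends were higher, with 3.33% (3.08 to 3.61) against 2.40% (2.26 to 2.55) from 250 bp up. Below 250 bp, where spanning was rare, the share was 0.261% (0.198 to 0.339) at the ends and 0.102% (0.0794 to 0.129) elsewhere, and for Spindlin1 intervals 0.565% (0.468 to 0.676) and 0.216% (0.181 to 0.254). Wide intervals were commoner at the ends, which held 443 of the 553 C11orf84 intervals of 2 kb or more. Spindlin1 intervals of 1 to 2 kb spanned several in 39.7% (36.9 to 42.5) at the ends and 50.3% (46.7 to 53.8) elsewhere.

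By chromosome, the spanning share of C11orf84 intervals was highest on chromosomes 16 (8.38%, 875 members), 8 (7.76%, 595), 22 (7.62%, 739), 17 (7.35%, 930) and 9 (7.25%, 695). It was lowest on chromosomes 21 (2.80%, 52 members), 4 and 6 (3.10% each, 145 and 205 members) and 19 (3.12%, 275), although chromosome 19 holds the member with most Spindlin1 intervals. The share exceeded that of the reverse case on 22 of 22 chromosomes, by little on several, such as chromosome 19 (3.12% and 3.07%). On chromosome 4 it was 3.10% (2.63 to 3.64) against 2.97% (2.45 to 3.56), and on chromosome 21 2.80% (2.10 to 3.65) against 2.56% (1.81 to 3.50). There and on further chromosomes the counting intervals of the directions overlap. Chromosome 8 had the highest ratio of members to reverse cases, 2.04. Its background had a median of 1.32 times the floor for C11orf84 and 1.36 times for Spindlin1. Without chromosome 8 the ratio over the other chromosomes was 1.52.

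**Figure D5:**
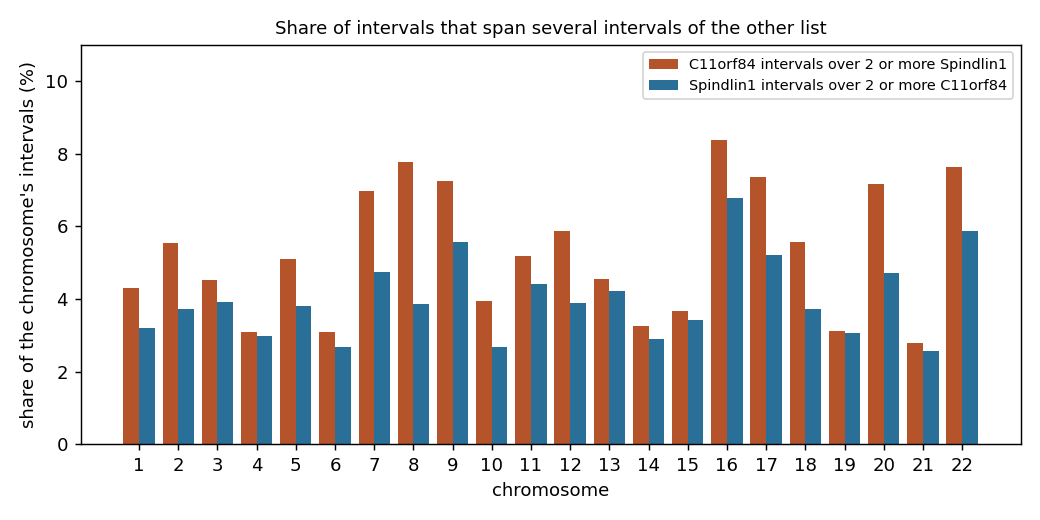
Share of each chromosome's intervals that lie over 2 or more intervals of the other list (vertical axis, percent), for C11orf84 and Spindlin1 intervals on chromosomes 1 to 22 (horizontal axis). C11orf84 is higher on every chromosome shown, by little on several, and chromosome 8 shows 7.76% beside 3.87%.

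The long arm end of chromosome 17 held most members of any arm end, 422 of 3311 C11orf84 intervals (12.7%), followed by the long arm end of chromosome 8 (410, 15.5%), the short arm end of chromosome 16 (404, 14.1%), the long arm end of chromosome 9 (391, 12.4%) and the short arm end of chromosome 7 (363, 13.6%). The reverse share at the chromosome 8 end was 6.82%, and the median background there was 1.47 times the floor in both lists. At the chromosome 16 end, with a median at the floor, the reverse share was 11.9%. The part of background in this difference was not tested. Among the ends, 23 of 39 had the higher share in the C11orf84 list. Other large ends had a C11orf84 spanning share below the 5.59% of the whole list. Examples were the short arm ends of chromosomes 19 (70 of 1944, 3.60%) and 1 (62 of 1768, 3.51%). The long arm ends of chromosomes 21 (41 of 1451, 2.83%) and 10 (13 of 1050, 1.24%) were lower still. The pooled share of the ends therefore does not hold for each of them.

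At 1 Mb resolution, 94 of the 2701 windows that held a peak contained 50% of the members. The 100 windows with most members held 51.5% of them and 26.8% of all C11orf84 intervals. The window at 79 to 80 Mb of chromosome 17 held 173 members among 785 C11orf84 intervals, and that at 1 to 2 Mb of chromosome 7 held 157 among 735. Next were chromosome 20 at 61 to 62 Mb (144 of 747), chromosome 16 at 1 to 2 Mb (137 of 784) and chromosome 9 at 139 to 140 Mb (130 of 675). These windows were listed for their number of members, so their counts are a description.

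Away from the ends, spanning intervals crowded beside the centromere of chromosome 12. The longest run of consecutive C11orf84 intervals that all spanned several Spindlin1 intervals had 10 members with 27 Spindlin1 overlaps over 20.4 kb (34509501 to 34529898). It lies in a block from 34319584 to 34852197 that ends just before a stretch of 3080914 bp without a peak of either list. In that block 39 of 151 C11orf84 intervals (25.8%, 19.1 to 33.6) were members, 11 of them over 3 or more, and 26 of 191 Spindlin1 intervals (13.6%, 9.09 to 19.3) were reverse cases. The members at 34552970 to 34556304 (fold 9.82 at 19 fragments) and 34484412 to 34487505 (fold 8.47 at 18 fragments) lay over 6 Spindlin1 intervals each. Median background in the block was 1.09 times the floor for C11orf84 and 1.14 times for Spindlin1. The block was singled out after its values were seen. Within 1 Mb of the 85 stretches of 1 Mb or more without a peak, 5.56% (4.84 to 6.35) of C11orf84 intervals were members, against 5.59% (5.48 to 5.70) farther away.

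Members also followed each other elsewhere. In all, the chromosome 12 block included, 2179 members (22.1%) had another member as a neighbouring C11orf84 interval. In the reverse direction, 932 reverse cases (14.6%) had a reverse case as neighbour. Members made up 5.59% of their list and reverse cases 4.19% of theirs, and a neighbour on either side counts. How much of the 22.1% and 14.6% follows from these unlike list shares was not tested. The longest run of reverse cases was 5, on chromosome 11 (76912845 to 76917692).

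The 2 cases overlapped at part of the regions. Of the members, 2705 (27.4%) lay over a Spindlin1 interval that itself lay over 2 or more C11orf84 intervals, and 2541 reverse cases (39.7%) took part in such a pair. When overlapping intervals of both lists were linked into connected groups, 95142 groups resulted. In 81826 (86.0%) 1 interval of each list met. In 7160 groups (7.53%) 1 C11orf84 interval met several Spindlin1 intervals and nothing else, in 3861 (4.06%) 1 Spindlin1 interval met several C11orf84 intervals, and in 2295 (2.41%) several of both were chained. The group with most intervals, 6 of C11orf84 and 9 of Spindlin1, covered 15539 bp of chromosome 7 (1504935 to 1520473). The next, 5 and 9, was in the chromosome 12 block (34549838 to 34556979).

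Reverse cases had their own leading regions. The Spindlin1 interval over 5 C11orf84 intervals lay on chromosome 17 (79682342 to 79683914, 1573 bp, fold 6.67 at 12 fragments on the floor). Its C11orf84 intervals had folds of 7.85, 6.38, 5.40, 4.91 and 8.35 in order of position, with gaps of 84, 86, 110 and 62 bp. The outer ones were thus the stronger, and the Spindlin1 summit fell in the last. The next 4 by number and width, over 4 C11orf84 intervals each, were all on the long arm end of chromosome 9, at 139257421 to 139261891, 138680145 to 138683041, 140782079 to 140784752 and 139562889 to 139565473. The widest reverse cases were on chromosome 8, where the interval of 7225 bp (145615352 to 145622576) lay over 3 C11orf84 intervals that covered 96.1% of it. The interval of 7196 bp (144553484 to 144560679) lay over 2 that covered 99.1% and left a gap of 65 bp.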

How the data were processed

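A list of ChIP-seq peaks from 1 library was used for each of Spindlin1 and C11orf84. Per the submitters' processing notes, Bowtie 1.2.2 and hg19 were used. The peak caller, control and threshold were not given in the sources used here. In the deposited lists the authors give each peak a fold enrichment (a ratio), the −log10 of its p-value and of its q-value, and a score derived from the q-value that was not used. These describe a peak within its own list.

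Summit depth k and background λ were recovered from the deposited fold, (k + 1)/(λ + 1), and p-value, taken as a Poisson tail above k at mean λ. The largest error was 0.000174 in −log10 p. Backgrounds within 0.1% of the lowest count as at the floor. Total read numbers are unknown. Recovery and overlap counting were tested on simulated data, where 100% of 5000 and of 4000 intervals came back right. The simulated folds and p-values were made with the same formulas. The recovery check therefore covers the inversion and not whether the deposited values follow that model. Arm ends were counted from the outermost peak. The work used pandas 2.3.3, NumPy 2.4.6, networkx 3.6.1, SciPy 1.17.1 and matplotlib 3.10.9 under Python 3.11.15.

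Members, width classes and alternatives were chosen with earlier results of these data known. Single regions were named by rule: the 10 members with most Spindlin1 intervals, the 5 widest, the 5 of highest fold, the 3 narrowest, the 3 with the longest gaps, the edge of the rule, and the 5 with most and 3 widest reverse cases, of which the text gives the leading ones. The chromosome 12 block, runs of neighbours and connected groups were chosen after the data were seen. Chromosomes X and Y were left out.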

Additional observations from a re-analysis of the deposited data

Results flagged for a closer look

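Chromosomes X and Y entered no comparison and still held intervals over several intervals of the other list. Numbers above 3 were flagged, which is a rule for listing and not a test. On chromosome X, 16 of 1042 C11orf84 intervals (1.54%, 0.880 to 2.48) lay over 2 Spindlin1 intervals, and 17 of 761 Spindlin1 intervals (2.23%, 1.31 to 3.55) lay over 2 C11orf84 intervals. None of them lay over more than 2. On chromosome Y, 5 of 90 Spindlin1 intervals (5.56%, 1.83 to 12.5) lay over 2 C11orf84 intervals. There 2 of 82 C11orf84 intervals lay over 2 Spindlin1 intervals, too few to be flagged. Whether the reads placed on chromosome Y came from that chromosome was not tested. The chromosome Y counts therefore describe positions in the lists and are not read as binding there.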

How the results depend on the processing

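Across 11 alternatives, C11orf84 intervals over several Spindlin1 intervals outnumbered the reverse cases each time, by 1.48 to 7.65 times (main value 1.54, counting interval 1.49 to 1.59). The numbers themselves moved over 1.5 times under several. When only peaks of −log10 q 10 or more were kept, they were 545 and 368 (ratio 1.48), members had a median width of 1664 bp and gaps a median of 102 bp, and from 4 up the ratio was 1.64 and the width 783 bp. Joining counted intervals under 200 bp apart gave 2228 and 725 (3.07), a width of 967.5 bp and a gap of 284 bp. Joining those under 500 bp apart gave 176 and 23 (7.65), 1308.5 bp and 587 bp. Here the loss follows from the construction. An overlap of at least 50 bp gave a ratio of 1.68 and a width of 789 bp. Summits inside gave 3039 reverse cases (2.28), a width of 852 bp and a gap of 106 bp, and 50% of each counted interval inside gave 2812 (2.39) and 864 bp. Without the outermost 5 Mb of arms there were 5757 and 3740, with a width of 712 bp. Without chromosome 8 the width was 742 bp, and without raised backgrounds the gap was 112 bp. The 100000 intervals of highest −log10 q in each list, an alternative chosen after seeing the data, gave 4697 and 2429 (1.93) and 915 bp. In the share of each list, the direction turned once: at a −log10 q of at least 10, 1.96% of C11orf84 and 2.04% of Spindlin1 intervals spanned several. The cause was not tested. No paired analysis was possible because each antibody has 1 library. Members of few fragments limit precision, since a gap of about 100 bp can turn on a few reads, and total depth is unknown.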

Other observations

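Wide C11orf84 intervals that were not members also lay over Spindlin1 almost throughout. The 107 C11orf84 intervals of 2 kb or more over a single Spindlin1 interval were covered by it over a median of 98.5% of their length, and that Spindlin1 interval had a median width of 2707 bp. Chromosome 8 held 58 of these 107 (54.2%) and 129 of the 446 members of that width (28.9%). Members of 2 kb or more were covered over a median of 88.0%, with a median of 156 bp for their longest gap.

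The C11orf84 summit of a member had more fragments than every Spindlin1 interval under it in 59.2% of members (58.2 to 60.2), as many as the deepest in 11.2% and fewer in 29.6%. C11orf84 intervals over 1 Spindlin1 interval were deeper than it in 51.6% (51.3 to 52.0). In reverse cases the spanning Spindlin1 summit was shallower than the deepest C11orf84 interval under it in 60.1% (58.9 to 61.3), and shallower than all of them in 20.5%. Spindlin1 intervals over 1 C11orf84 interval were shallower than it in 58.3% (58.0 to 58.6), so the 60.1% is near the share outside the reverse cases. Of the C11orf84 members, 5.63% were shallower than all of their Spindlin1 intervals. These counts are not scaled for the depth of the libraries.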
